A study of Mus musculus with 12 samples.

Results

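Foxp3+ regulatory T cells (Treg) were compared with Foxp3- effector T cells (Teff) sorted from cultures that had received soluble OX40L and soluble JAG1. The comparison rests on 4 of the 12 arrays of the series, 2 OX40L-JAG1 Treg and 2 OX40L-JAG1 Teff arrays, chosen by their sample titles. Per the labels, the cells were CD4+ splenocytes of Foxp3.eGFP mice (C57BL/6 background, 8 weeks old), in which green fluorescent protein marks cells that express Foxp3. CD4+ cells holding both populations were kept for 3 days with OX40L at 5 µg/ml and JAG1 at 1 µg/ml and were sorted afterwards, so both populations came from the same kind of culture. The other groups are Treg and Teff cells sorted fresh (Control, not cultured) and after a culture of 3 days in which antibodies against CD3 and CD28 at 2 µg/ml each stood in for the ligands (a-CD3-CD28), again with 2 arrays per group. They are used here to set the OX40L-JAG1 difference beside the differences of cells of the same sort. No label says whether 2 arrays of a group came from separate mice or cultures, so the p-values cover only the variation among these arrays, part or all of which may be technical.

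Treg cells restrain other lymphocytes, and the transcription factor Foxp3 fixes their identity together with the IL-2 receptor, inhibitory surface molecules and the factors Ikzf2 and Ikzf4. OX40 (gene Tnfrsf4) is a receptor of the tumour necrosis factor (TNF) receptor family, carried by Treg cells and by activated T cells, and signals through TRAF adaptors to NF-kappaB. JAG1 is a membrane ligand of Notch receptors, which are cleaved on binding and release a fragment that acts with the DNA-binding protein RBPJ. The series was designed to set proliferation of Treg cells that needs the T cell receptor against proliferation that does not, and OX40L with JAG1 is the arm without a receptor stimulus.

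The deposited log2 intensities of 22180 genes were quantile normalized over the 12 arrays, and differences are Treg minus Teff on that log2 scale. The OX40L-JAG1 Teff arrays stood apart: the standard deviation over genes was 1.49 in replicate B and 1.71 in replicate 1 before normalization, while the remaining 10 arrays had 1.95 to 2.19. Both replicates correlated at 0.879, where replicates of other groups reached 0.984 to 0.994, and each replicate correlated best with the OX40L-JAG1 Treg array of the same replicate label (0.885 for B, 0.934 for 1). A weighted limma fit therefore gave these arrays a weight of 0.131, against 0.962 to 2.54 for the others. A gene is said to be higher or lower where its adjusted p (Benjamini-Hochberg, two-sided) was under 0.05. Every Treg against Teff call after OX40L-JAG1 named below was lost when OX40L-JAG1 Teff replicate B was left out, while its direction stayed. That check was not made gene by gene for the tests against the Control and a-CD3-CD28 differences. Fits that leave out an array take their spread from the other 5 groups and assume that the remaining array, at its group's weight, varies like them. The files hold no detection calls. A group mean below the median of all tested genes (4.97) may be background, and the size of a difference that starts or ends there is uncertain.

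Against this background 210 genes (0.947% of 22180) were higher in OX40L-JAG1 Treg cells and 106 (0.478%) were lower, 316 or 1.42% in all. At an unadjusted p below 0.05 the shares were 8.68% higher and 6.34% lower, against which the unadjusted counts given for gene lists are to be read. The deposited scale called 2767 genes higher (12.5%) and a common median 4017 (18.1%), and counts of list members under these scalings are given in that order. The median difference was 1.98 among the genes that were higher and -2.21 among those that were lower, and -0.0058 over all genes. In all 316 genes the Treg and Teff arrays did not overlap, as in 26.1% of all genes in the higher direction and 22.8% in the lower. The Teff mean lay below 4.97 for 94 of the 210 genes, and the Treg mean for 9 of the 106. Without OX40L-JAG1 Teff replicate B, limma called 0 genes higher and 2 lower (880 and 700 without adjustment), and all 316 genes kept their sign. Without Teff replicate 1 it called 168 and 115, without Treg replicate B 56 and 41, and without Treg replicate 1 106 and 78. A fit on the 4 arrays alone, without weights, called 0 genes in either direction (1899 and 1499 at an unadjusted p below 0.05). The share of calls that was higher was 66.5%, against 88.5% on the deposited scale, on which the median of all genes shifted to -0.14, 95.3% after shifting arrays to a common median, 77.3% with quantile normalization over all probe sets and 45.0% after cyclic loess.

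**Figure D1:**
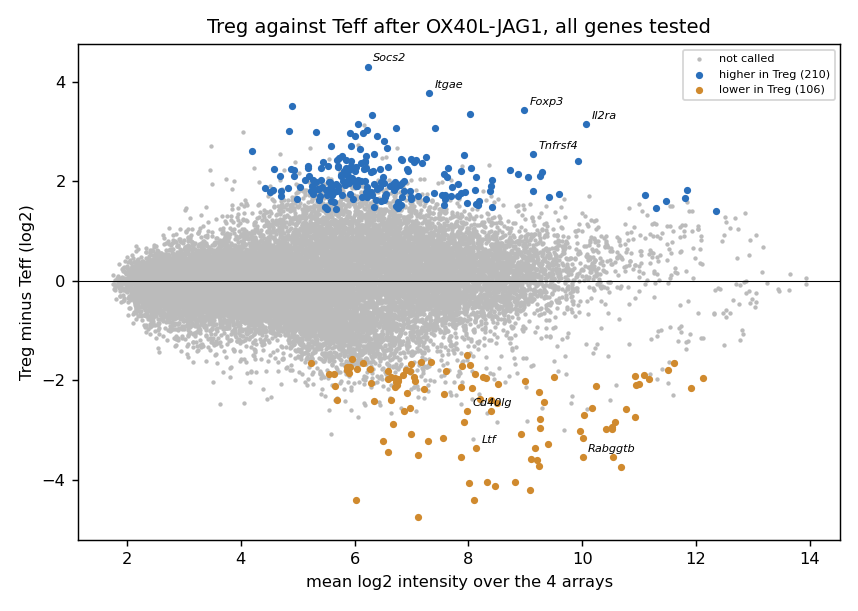
Treg minus Teff difference after OX40L-JAG1 (vertical axis, log2) against the mean log2 intensity over the 4 arrays (horizontal axis), 1 point per gene. The 210 genes higher in Treg cells (blue) lie mostly at middle levels, and the 106 lower genes (orange) reach down to -4.75.

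Foxp3, the gene whose reporter defined the sort, was at 7.26 and 7.28 on the Teff arrays and at 10.86 and 10.54 on the Treg arrays. Both Treg arrays lay far above both Teff arrays, as the sort labels require. The difference was 3.43 ± 0.40 (log2, SE), a 10.8-fold difference (adjusted p = 0.00441). The Teff mean of 7.27 was higher than the 5.65 of Control Teff and the 5.64 of a-CD3-CD28 Teff cells, and the 3 differences of Foxp3 stood at 3.43 after OX40L-JAG1, 4.64 in Control and 5.50 in a-CD3-CD28 cells. The test of the difference between these differences did not pass for Foxp3 (-1.21 ± 0.43 against Control, adjusted p = 0.152, and -2.07 ± 0.44 against a-CD3-CD28, 0.162). In bulk samples, fewer cells of a type and less RNA per cell cannot be told apart. Flicr, a long noncoding RNA encoded beside Foxp3, was at 5.30 and 4.10 in Teff and at 7.91 and 7.56 in Treg cells, a difference of 3.04 ± 0.57 (adjusted p = 0.0263). The Teff mean of Flicr was below the bound. Without Teff replicate B the differences were 3.42 for Foxp3 (adjusted p = 0.112) and 3.64 for Flicr (0.192).

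The Foxp3 start sites are shown because Foxp3 defines the comparison and both treatments act on pathways that end in DNA-binding factors. The windows run from 250 bases before to 50 bases after each of the 2 starts that RefSeq lists (GRCm38.p6, plus strand), chrX:7579426-7579725 and chrX:7580233-7580532.
Foxp3 start 1: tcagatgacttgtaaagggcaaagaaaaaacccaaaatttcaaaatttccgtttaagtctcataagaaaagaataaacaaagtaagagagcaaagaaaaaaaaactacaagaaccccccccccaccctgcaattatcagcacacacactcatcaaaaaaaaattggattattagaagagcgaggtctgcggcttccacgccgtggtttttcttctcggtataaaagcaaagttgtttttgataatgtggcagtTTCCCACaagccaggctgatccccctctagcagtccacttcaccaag
Foxp3 start 2: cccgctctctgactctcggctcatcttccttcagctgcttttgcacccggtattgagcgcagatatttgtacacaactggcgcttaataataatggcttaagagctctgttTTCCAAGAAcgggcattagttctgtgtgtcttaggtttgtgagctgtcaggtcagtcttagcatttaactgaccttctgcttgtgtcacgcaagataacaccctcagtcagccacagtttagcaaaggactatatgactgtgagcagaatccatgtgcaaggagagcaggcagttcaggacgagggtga
Capitals mark a match to GTGGGAA, the core bound by RBPJ, read on the opposite strand in the first window, and a match to TTCNNNGAA, the spacing bound by STAT factors, in the second. On both strands GTGGGAA occurs in 6.38% and TTCNNNGAA in 8.30% of 32851 windows of this length. Among the 24 windows of 21 measured Treg identity genes, 2 held GTGGGAA, 4 held TTCNNNGAA and 2 held the forkhead core GTAAACA (3.65% of all windows). Among 205 windows of genes higher in Treg cells the counts were 10, 19 and 7, and among 51 windows of lower genes 3, 3 and 2. These matches describe letters only.

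Treg identity genes were examined first. Of 33 measured, 15 were higher in OX40L-JAG1 Treg cells, 0 were lower and 18 did not pass, with 32 differences above 0 and a median of 1.90. The mean level over the list was 6.30 and 6.42 on the Teff arrays and 8.22 and 8.20 on the Treg arrays. The median difference was 2.34 in Control and 1.72 in a-CD3-CD28 cells. Socs2, a feedback inhibitor induced by STAT5, was at 3.55 and 4.61 in Teff and at 7.90 and 8.88 in Treg cells, the largest difference of a named gene (4.31 ± 0.67, adjusted p = 0.0123). Its Teff mean is below the bound, and without Teff replicate B the difference was 3.78. Itgae, the integrin chain CD103, was at 5.47 and 5.37 against 9.26 and 9.13, a 13.7-fold difference (3.77 ± 0.35, adjusted p = 0.00268), with almost no spread within either group. Lrrc32, which holds latent TGF-beta on the Treg surface, was at 6.31 and 6.39 against 9.60 and 9.80 (3.35 ± 0.62, adjusted p = 0.026). Il2ra, the alpha chain of the IL-2 receptor, was at 8.35 and 8.64 against 11.81 and 11.48 (3.15 ± 0.37, adjusted p = 0.00441), and both Treg arrays again lay far above both Teff arrays. Ikzf2 was at 8.73 and 8.70 against 11.44 and 10.83 (2.42 ± 0.48, adjusted p = 0.0326).

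The other called members of that list were Nrp1, a semaphorin coreceptor (2.82), Ikzf4 (2.37), Plagl1 (2.24), Ecm1 (2.21), Nt5e, which makes adenosine (1.88), and the receptors Tigit, Tnfrsf9, Tnfrsf18 and Ctla4. The Teff mean of Plagl1 (3.81) was below the bound. Just short of the threshold were Il2rb at 1.49 ± 0.34 (adjusted p = 0.0503), Gpr83 at 2.47 ± 0.56 (0.0525) and Izumo1r, the folate receptor of Treg cells, at 1.57 ± 0.36 (0.054). A few members had differences near 0, which with their errors does not show equal levels. Il10, the inhibitory cytokine, was at 3.96 and 3.75 against 4.27 and 3.60, below the bound throughout, and Gzmb, a granzyme, at 6.23 and 6.91 against 6.36 and 6.83. Prdm1 (-0.04 ± 0.51), Cd83 (0.15 ± 0.34) and Entpd1 (0.24 ± 0.33) did not pass either. Without Teff replicate B the 15 called genes had differences from 1.51 to 3.82 and 0 passed. Without Teff replicate 1, 9 passed, without Treg replicate 1, 13, and without Treg replicate B, 10.

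**Figure D2:**
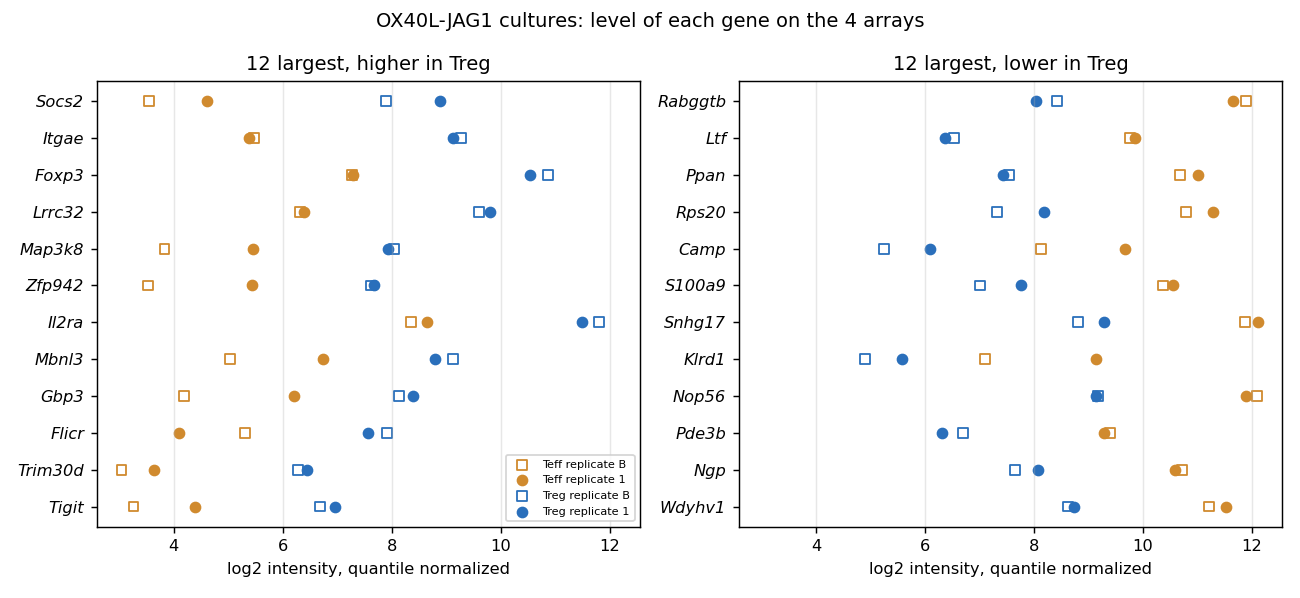
Quantile normalized log2 intensity (horizontal axis) of the 12 genes named for the largest differences among those that passed in each direction, on the 2 Teff (orange) and 2 Treg (blue) arrays, squares for replicate B and circles for replicate 1. No Treg point overlaps a Teff point, and the Teff points of Map3k8, Zfp942, Mbnl3, Gbp3, Camp and Klrd1 lie far from each other.

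Genes outside the identity list were also among the largest differences. Map3k8, a kinase that activates ERK downstream of TNF family receptors, was at 3.83 and 5.46 in Teff and at 8.04 and 7.92 in Treg cells (3.34 ± 0.48, adjusted p = 0.00914). Mbnl3, a regulator of RNA splicing, was at 5.02 and 6.73 against 9.13 and 8.79 (3.08 ± 0.47, adjusted p = 0.0123). In both genes the Treg arrays were close together and the Teff arrays were not. The Teff mean of Map3k8 is below the bound. The zinc finger gene Zfp942 (3.16 ± 0.60, adjusted p = 0.0286) and Trim30d (3.02 ± 0.41, 0.00699) belong to families with similar copies, which probes may not tell apart, and both Teff means are below the bound. Without Teff replicate B the differences were 2.52 for Map3k8, 2.23 for Mbnl3, 2.21 for Zfp942 and 2.72 for Trim30d. Without Teff replicate 1 they were 4.15, 3.94, 4.11 and 3.32, and those 4 passed.

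Genes known to be lower in Treg cells were lower in 5 of 20 measured members, 0 were higher and 15 did not pass, with a median of -0.24. On the deposited scale the median was 0.43, and after a common median shift 0.63, so the direction of the list as a whole depends on the scaling. Pde3b, a phosphodiesterase repressed by Foxp3, was at 9.40 and 9.28 in Teff and at 6.71 and 6.31 in Treg cells (-2.83 ± 0.55, adjusted p = 0.0312). Cd40lg, the helper ligand that acts on CD40 of antigen-presenting cells, was at 9.10 and 9.48 against 6.83 and 6.52 (-2.62 ± 0.35, adjusted p = 0.00699). The groups lay well apart for both genes. Dapl1 (-2.14 ± 0.46), Igfbp4 (-1.82 ± 0.39) and Themis, which tunes the T cell receptor signal (-1.70), completed the calls. Il7r, the IL-7 receptor chain that Treg cells usually carry at a low level, had 0.91, and Il2 was at 3.24 and 3.16 against 3.24 and 3.36, below the bound on all 4 arrays. In 21 resting T cell genes, with a median of 0.01, 0 were higher and 2 were lower, Igfbp4 and Pik3ip1 (-1.71 ± 0.34, adjusted p = 0.0337), an inhibitor of PI3 kinase. The members Lef1 (-0.05) and Ccr7 (-0.03) did not pass. The direction of this list turned with the scaling, with 7 and 10 genes higher and 0 lower (medians of 0.85 and 1.06) and, after cyclic loess, 0 higher and 3 lower (-0.45). Dapl1, Igfbp4 and Pik3ip1 also did not pass on the deposited scale. Without Teff replicate B the 5 list calls had differences from -2.92 to -1.58, and 1 passed without Teff replicate 1, Cd40lg.

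Receptors of the TNF family include the receptor for the added OX40L. Of 19 measured genes, 4 were higher in Treg cells, 1 was lower and 14 did not pass, while the deposited scale and a common median each called 10 higher and 0 lower. Tnfrsf4 itself was at 7.69 and 8.04 in Teff and at 10.37 and 10.44 in Treg cells, so that all 4 levels were above the bound and Treg cells were 5.83-fold higher (2.54 ± 0.31, adjusted p = 0.00525). Tnfrsf9, which encodes 4-1BB, was at 7.89 and 7.35 against 9.99 and 9.71 (2.24 ± 0.37, adjusted p = 0.0166). Tnfrsf18, which encodes GITR, was at 7.61 and 8.80 against 10.33 and 10.30 (2.11 ± 0.40, 0.0283). Fas, the death receptor, differed by 2.08 ± 0.41 (0.0331). The lower gene was Ltbr, the lymphotoxin receptor of stromal and myeloid cells (-1.81). The endogenous ligand gene Tnfsf4 had 0.20 and did not pass. Tnfrsf4 differed by 3.60 in Control and by 1.81 in a-CD3-CD28 cells, and neither difference from OX40L-JAG1 passed (-1.05 ± 0.34, adjusted p = 0.114, and 0.74 ± 0.34, 0.556). Without Teff replicate B the differences were 2.37 for Tnfrsf4, 2.51 for Tnfrsf9, 1.51 for Tnfrsf18, 1.34 for Fas and -1.05 for Ltbr, and 0 passed.

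Among 23 TRAF adaptor and NF-kappaB genes, 4 were higher, 0 were lower and 19 did not pass, with 19 differences above 0 and a median of 0.55. The called genes were 2 subunits and 2 regulators. Rel, the c-Rel subunit that Treg development needs, was at 8.07 and 7.51 in Teff and at 10.06 and 9.83 in Treg cells (2.16 ± 0.38, adjusted p = 0.0217). Nfkb2, the p100 precursor of the noncanonical branch, was at 7.30 and 6.80 against 8.87 and 8.81 (1.79 ± 0.33, 0.0263). Tnfaip3, the inhibitor A20, was at 6.98 and 7.41 against 9.08 and 8.98 (1.83 ± 0.34, 0.0255), and Birc2, a ubiquitin ligase bound to TRAF2, differed by 1.57 ± 0.34 (0.0464). In these 4 genes the lowest Treg array was above the highest Teff array by more than 1. Traf2 (0.17), Rela (0.57) and Map3k14, the kinase NIK (-0.10), did not pass. The median of the list was 0.28 in Control and 0.34 in a-CD3-CD28 cells. With Teff replicate B left out the 4 differences ran from 1.46 to 2.44 with 0 calls, and without Teff replicate 1 there were 0 calls as well. The deposited scale called 15 of the 23 and a common median 17, with medians of 1.43 and 1.64.

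Genes of the Notch pathway came next, since JAG1 is a Notch ligand. Of 9 receptors and ligands, limma called 0 (0 higher and 2 lower before adjustment at p below 0.05), and differences ran from -1.31 (Notch4) to 0.45 (Notch2). Notch1 was at 8.62 and 7.67 in Teff and at 8.14 and 7.92 in Treg cells, so that the Treg arrays lay between the Teff arrays (-0.12 ± 0.37, adjusted p = 0.95). Notch2 was at 8.11 and 7.28 against 8.30 and 7.98 (0.45 ± 0.41, 0.717), and Notch3 at 6.80 and 4.77 against 5.53 and 4.50 (-0.77 ± 0.70, 0.716). Of 27 signalling and target genes 1 was higher, Il2ra, which is also in 2 other lists, and the rest ran from -1.27 for Hes5 to 1.32 for the coactivator Maml1. Before adjustment Maml1, Gata3, Numb and Psenen were also higher and Hes5 and Dtx1 lower at p below 0.05. The limma test against the Control difference passed for Maml1 (1.72 ± 0.38, adjusted p = 0.0381) and Numb (1.87 ± 0.44, 0.0446). Over all genes 1.51% passed this test with a more positive difference. The Control differences were -0.40 for Maml1 and -0.73 for Numb. Rbpj (-0.35), the target Hes1 (0.21) and Dtx1, a target that feeds back on Notch (-0.92), did not pass, and Hes1 lay below the bound. On the deposited scale and after a common median 9 of the 27 genes were called higher, with medians of 0.61 and 0.82 against -0.03, and of the receptors and ligands 1 and 2, Notch1 among the latter. Given the errors of the Teff arrays, a p that misses the threshold does not show equal levels.

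**Figure D3:**
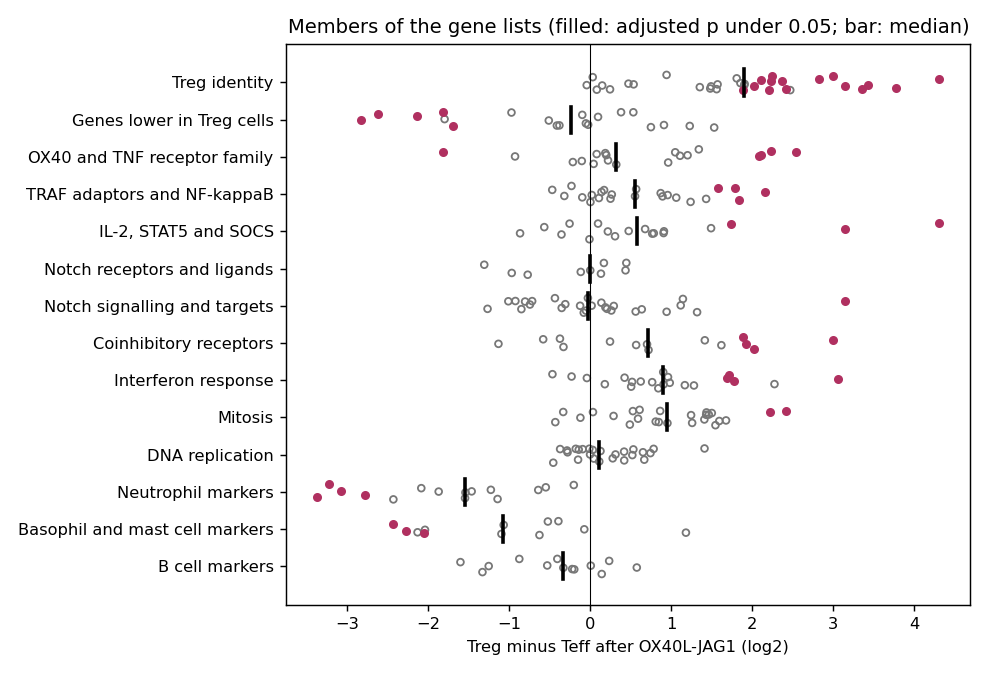
Treg minus Teff difference after OX40L-JAG1 (horizontal axis, log2) of each measured gene in 14 gene lists, filled where the adjusted p was under 0.05, with a bar at the list's median. Treg identity genes have a median of 1.90 with 15 calls, and neutrophil markers a median of -1.55 with 4 calls on the other side of 0.

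Of 18 genes of the IL-2 and STAT5 response, 3 were higher and 0 were lower. Beside Socs2 and Il2ra this was Cish, another STAT5 target that dampens cytokine signals, at 7.04 and 6.31 in Teff and at 8.35 and 8.46 in Treg cells (1.74 ± 0.36, adjusted p = 0.0402). Socs1 (0.31), Socs3 (-0.57) and Stat5a (-0.36) did not pass. Of 14 coinhibitory receptors and their enzymes, 4 were higher and 0 were lower. Ctla4, which takes up the ligands CD80 and CD86, was at 7.23 and 7.56 against 9.39 and 9.46 (2.03 ± 0.32, adjusted p = 0.0147). Tigit was at 3.26 and 4.38 against 6.68 and 6.95 (3.00 ± 0.45, 0.0111), with the Teff arrays below the bound. Cd200r1 (1.92 ± 0.42, 0.0487) and Nt5e (1.88 ± 0.34, 0.0236) were the others, while Pdcd1 (0.72), Lag3 (-0.33) and Havcr2 (-0.37) did not pass. In the fit without Teff replicate B the differences ran from 2.10 to 3.78 in the first list and from 1.20 to 2.44 in the second, with 0 calls in each. The deposited scale and a common median called 9 and 10 of the 18 genes higher and 7 and 9 of the 14.

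Among 20 T helper transcription factors, 2 were higher and 0 were lower. Irf4, needed for effector Treg cells, was at 3.92 and 4.17 in Teff and at 6.33 and 6.29 in Treg cells (2.27 ± 0.35, adjusted p = 0.0123), and Maf at 4.73 and 4.82 against 6.51 and 6.25 (1.60 ± 0.35, 0.0469). Both Teff means are below the bound, and the other scalings called 10 and 12 of the list higher. Tbx21 (-1.23), which drives Th1 cells, and Gata3 (1.12), which drives Th2 cells, did not pass. Of 17 chemokine receptors 1 was higher, Ccr8, a receptor of tissue Treg cells, at 4.80 and 4.58 against 6.83 and 6.79 (2.12 ± 0.33, adjusted p = 0.0129). The Teff mean of Ccr8 (4.69) was below the bound. In 20 effector cytokines limma called 0 (3 higher and 0 lower at p below 0.05 before adjustment), and 15 of them lay below the bound on all 4 arrays and may be background. Csf1 (1.06 ± 0.44) and Lta (0.96 ± 0.36) had the largest differences of that list, of which the other scalings called 3 each. In 15 cytotoxic mediators it called 0 as well (2 higher and 1 lower unadjusted, 4 higher under each of the other scalings), with differences from -1.09 for Gzmk to 1.48 for Serpinb9, which protects from granzyme B. When Teff replicate B was left out the differences were 2.15 for Irf4, 1.56 for Maf and 2.23 for Ccr8, each without a call.

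Genes of cell division were examined because the treatment was given to make Treg cells divide. In 25 mitosis genes 2 were higher, 0 were lower and 22 differences were above 0, with a median of 0.95 against 0.42 in Control and 0.46 in a-CD3-CD28 cells. The median was 0.62 without Teff replicate B, 1.30 without Teff replicate 1 and 0.57 after cyclic loess, and the deposited scale and a common median called 14 and 18 of the genes. Kif23, a kinesin of the late division furrow, was at 5.10 and 4.85 in Teff and at 7.38 and 7.39 in Treg cells (2.41 ± 0.40, adjusted p = 0.0169). Cenpe, a kinesin of the kinetochore, was at 5.06 and 4.51 against 7.04 and 6.98 (2.22 ± 0.33, 0.0109). The Teff mean of Cenpe was below the bound. Mki67, the usual marker of cycling cells, was at 6.96 and 8.34 against 9.23 and 9.26, without overlap, and did not pass (1.59 ± 0.37, adjusted p = 0.0563). Cdc20 (-0.43) and Bub1b (-0.12) were on the other side of 0. In 25 DNA replication genes limma called 0 (1 higher and 0 lower at p below 0.05 before adjustment), with a median of 0.11 (-0.28 after cyclic loess), and Pole, a replicative polymerase, had the largest difference (1.41 ± 0.37, adjusted p = 0.0833). With Teff replicate B left out Kif23 and Cenpe had 2.53 and 2.50, and without Teff replicate 1 2.29 and 1.95, with no call in either fit.

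In 21 interferon response genes 4 were higher, 0 were lower and 18 differences were above 0, with a median of 0.90 against 0.02 in Control and 0.23 in a-CD3-CD28 cells. Gbp3, a guanylate-binding protein with close relatives on the array, was at 4.19 and 6.20 in Teff and at 8.13 and 8.38 in Treg cells (3.06 ± 0.48, adjusted p = 0.0129). Stat2, part of the factor that reads type I interferon, was at 6.04 and 6.99 against 8.37 and 8.21 (1.78 ± 0.39, 0.0456). The RNA sensor Ifih1 differed by 1.72 ± 0.35 (0.0382) and the feedback protease Usp18 by 1.68 ± 0.36 (0.0454). The classical targets Mx1 (0.62), Ifit1 (0.96), Isg15 (0.84) and Irf7 (-0.23) did not pass. In the fit without Teff replicate B the 4 differences ran from 1.30 to 2.06 with 0 calls, and after cyclic loess 1 of the 4 passed, with a list median of 0.46. The deposited scale and a common median called 11 and 12 of the 21.

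Single genes passed in some lists of metabolism and stress. Hif1a, the oxygen-regulated factor, was at 8.70 and 8.73 in Teff and at 10.62 and 10.32 in Treg cells (1.76 ± 0.34, adjusted p = 0.0326), the only call among 17 glycolysis and hypoxia genes. That call was lost when all probe sets of each gene were averaged. Wars, the tryptophan tRNA ligase, was at 6.80 and 7.15 against 8.69 and 8.66 (1.70 ± 0.36, 0.0436), the only call among 17 amino acid and stress genes. Hspa1a, an inducible heat shock gene with the near-identical copy Hspa1b, was lower, at 8.70 and 8.72 against 7.25 and 7.20 (-1.49 ± 0.31, 0.0413), 1 of 11 heat shock genes. No gene was called by limma among 17 cholesterol and fatty acid genes (3 higher and 1 lower at p below 0.05 before adjustment), 30 oxidative phosphorylation genes (1 and 0) and 28 proteasome genes (2 and 0). The same held for 15 genes of the T cell receptor complex (3 and 0) and 20 immediate early genes (4 and 1). The deposited scale and a common median did call members of these lists higher, 7 and 8 for cholesterol and fatty acids, 5 and 9 for oxidative phosphorylation and 8 and 13 for the proteasome. They called 8 and 10 for the T cell receptor complex and 7 and 9 for the immediate early genes. The largest differences were Fads1 at 1.43 ± 0.38, Ndufs1 at 0.98 ± 0.46, Psmd1, which holds a small nucleolar RNA gene, at 1.44 ± 0.51, Cd2 at 1.14 ± 0.34 and Nr4a3 at 1.87 ± 0.51, with adjusted p from 0.089 to 0.341. When Teff replicate B was left out the 3 calls had 1.74, 1.52 and -1.50 and did not pass.

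Some granulocyte markers were lower in OX40L-JAG1 Treg cells. Of 15 neutrophil markers 4 were lower, 0 were higher and all 15 differences were below 0, with a median of -1.55 (-0.81 after a common median). Ltf, the granule protein lactoferrin, was at 9.77 and 9.86 in Teff and at 6.53 and 6.36 in Treg cells, a 10.3-fold difference (-3.37 ± 0.43, adjusted p = 0.0057). Camp, the cathelicidin precursor, was at 8.12 and 9.68 against 5.25 and 6.09 (-3.23 ± 0.64, 0.0337). S100a9, a subunit of calprotectin, was at 10.38 and 10.55 against 7.02 and 7.76 (-3.07 ± 0.57, 0.0263), and Ngp, a neutrophil granule protein, at 10.71 and 10.58 against 7.66 and 8.08 (-2.78 ± 0.38, 0.00699). In each gene both Teff arrays lay more than 2 above both Treg arrays. The azurophil granule genes Elane (-0.55), Mpo (-0.64) and Prtn3 (-0.20) did not pass. Averaged over the list, the level was 7.94 and 8.43 on the Teff arrays and 6.24 and 6.50 on the Treg arrays, and the means were 5.34 and 4.34 in Control Teff and Treg and 4.55 and 4.51 in a-CD3-CD28 Teff and Treg cells. With Teff replicate B left out the 4 differences ran from -4.00 to -2.72, with 0 calls, and without Teff replicate 1, 2 passed.

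Basophil and mast cell markers followed, with 3 of 12 lower, 0 higher and a median of -1.08, which was -0.51 without Teff replicate 1 and -1.69 without Teff replicate B. Mcpt8, a basophil protease, was at 10.40 and 10.69 in Teff and at 8.02 and 8.21 in Treg cells (-2.43 ± 0.39, adjusted p = 0.0153). Prss34, a second basophil protease, was at 8.43 and 8.98 against 6.32 and 6.53 (-2.28 ± 0.45, 0.0326), and Hdc, which makes histamine, at 7.25 and 7.37 against 5.32 and 5.18 (-2.06 ± 0.44, 0.0447). Kit, at 5.46 and 5.79 against 7.19 and 6.42 (1.18 ± 0.60, 0.393), lay above 0 and did not pass, while the rest of the list lay below. Its difference in Control was -1.98, and the limma test against the Control difference passed (3.16 ± 0.64, adjusted p = 0.0281). The mean over the list was 5.78 and 6.78 in Teff and 5.11 and 5.19 in Treg cells. Among 18 myeloid and dendritic markers limma called 0 (1 higher and 5 lower at p below 0.05 before adjustment), with Tyrobp at 7.75 and 10.05 against 6.79 and 6.95 (-2.02 ± 0.63, adjusted p = 0.136) and Cybb at 8.34 and 8.77 against 7.00 and 6.54 (-1.79 ± 0.57, 0.149). Klrd1, an NK cell receptor chain, was at 7.09 and 9.14 against 4.90 and 5.58 (-2.87 ± 0.56, 0.0317), the only call among 10 CD8 T and NK markers. Its difference was of similar size in Control (-2.89) and a-CD3-CD28 cells (-2.76). In that list Eomes (1.38), Cd8b1 (0.50), Cd8a (0.19) and Klre1 (0.03) lay above 0 and the rest below. Limma called 0 of 13 B cell markers (4 lower unadjusted), 0 of 9 MHC class II genes (1 higher and 1 lower) and 0 of 7 erythroid and platelet markers (1 lower). The part of other cells in the remaining results was not tested. In the fit without Teff replicate B the differences were -2.57, -2.55 and -2.12 for the 3 basophil genes and -3.90 for Klrd1, without a call. Prss34 also did not pass on the deposited scale, after a common median and after cyclic loess, and Hdc did not pass in the last 2 of these.

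**Figure D4:**
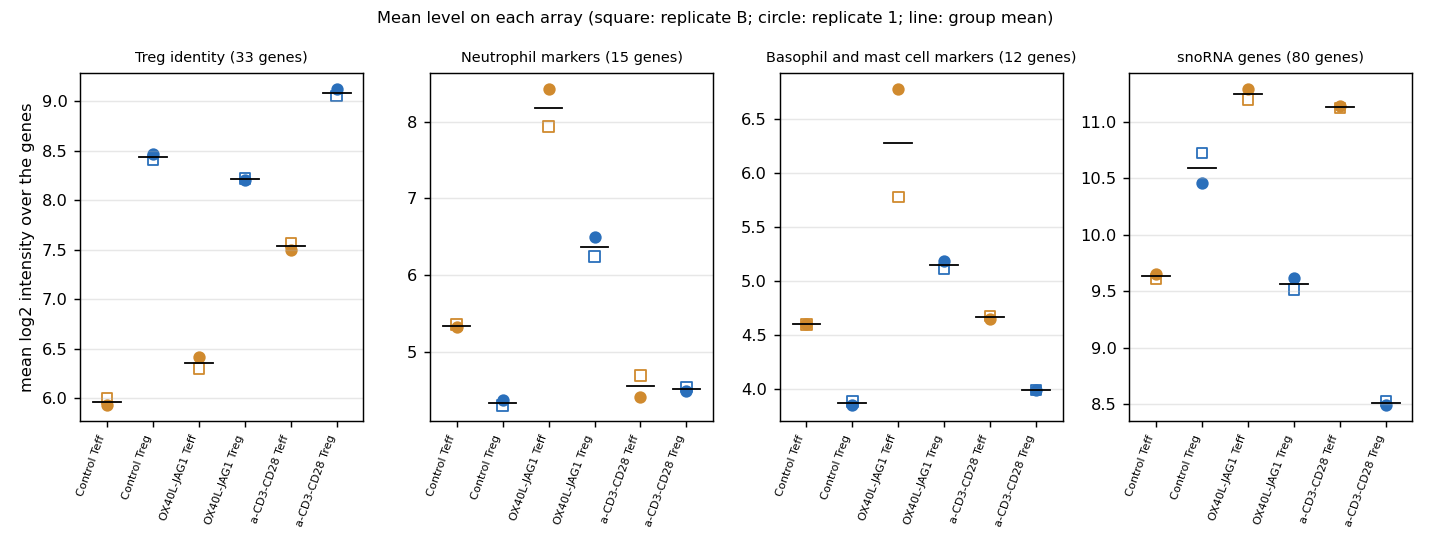
Mean quantile normalized log2 intensity (vertical axes, each panel on its own scale) of 4 groups of genes on each of the 12 arrays, squares for replicate B, circles for replicate 1 and a line for the group mean. Neutrophil markers stand at 7.94 and 8.43 on the OX40L-JAG1 Teff arrays, above every other array, and snoRNA genes stand above 11 in both cultured Teff groups.

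A further group was put together after the results were seen. Small nucleolar RNAs (snoRNAs) guide the modification of ribosomal RNA and mostly lie in introns of other genes. Of 80 snoRNA genes on the array, 26 (32.5%) were lower in OX40L-JAG1 Treg cells and 0 were higher, with a median of -1.27 and 76 differences below 0. The deposited scale called 44 lower, a common median 40 and cyclic loess 66, the last with a median of -2.66. Their mean level was 11.20 and 11.29 on the Teff arrays and 9.51 and 9.62 on the Treg arrays. The median difference was 0.92 in Control, where 47 were higher in Treg cells and 1 lower, and -2.93 in a-CD3-CD28 cells, where 68 were lower and 0 higher. When Teff replicate B was left out 2 of the 26 passed, and these were the 2 calls of that fit over all genes; without Teff replicate 1, 13 passed.

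Of the 12 genes named for the largest differences among those that were lower, 6 belong to genes whose span holds a snoRNA gene. Rabggtb, a subunit of the enzyme that attaches lipids to Rab proteins, was at 11.90 and 11.66 in Teff and at 8.42 and 8.04 in Treg cells (-3.55 ± 0.64, adjusted p = 0.0236). Ppan, a ribosome assembly factor, was at 10.68 and 11.02 against 7.54 and 7.43 (-3.36 ± 0.43, 0.0057). Rps20, a protein of the small ribosomal subunit, was at 10.79 and 11.29 against 7.32 and 8.19 (-3.29 ± 0.52, 0.0138), and it was the only call among 40 ribosomal protein genes. Snhg17 (-2.94 ± 0.49, 0.0166), a host transcript without a protein, Nop56 (-2.84 ± 0.55, 0.0302), a core protein of snoRNA particles, and Wdyhv1 (-2.69 ± 0.51, 0.0287) were the others. For these genes the signal of the host and of the snoRNA cannot be told apart without probe positions. Over all 371 genes with a snoRNA gene in their span, 12 were lower and 1 was higher, with a median of 0.15. With Teff replicate B left out the 6 differences lay between -3.53 and -2.74 and did not pass.

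The difference between OX40L-JAG1 Treg and Teff cells was then set beside that of fresh cells, which shares no array with it. Of the 210 genes higher after OX40L-JAG1, 80 (38.1%) were also higher in Control Treg cells, where 1494 genes were higher (6.74% of all tested), so that they made up 5.35% of that list. A further 25 were lower in Control. Of the 106 lower genes, 29 (27.4%, or 1.78% of the 1627 genes lower in Control, themselves 7.34% of all tested) were lower in Control as well and 36 were higher there. The correlation of both differences across the 22180 genes was 0.025, as a description over genes that share arrays.

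The interaction test called 577 genes (2.6%), 336 (1.51%) with a more positive difference after OX40L-JAG1 and 241 (1.09%) with a more negative one. Abitram was at 4.02 and 4.41 in Teff and at 6.82 and 7.04 in Treg cells, with a difference of 2.72 after OX40L-JAG1 and -0.69 in Control (3.40 ± 0.46, adjusted p = 0.00392). Both OX40L-JAG1 Teff arrays of Abitram lay below the bound. Car2 and Car1 are carbonic anhydrases from the list of erythroid and platelet markers, and Car2 is also among the genes known to be lower in Treg cells. In Control their means were 8.93 and 9.48 in Teff against 4.82 and 5.02 in Treg cells, differences of -4.11 and -4.46. After OX40L-JAG1 the differences were -0.10 and -0.83, changes of 4.01 ± 0.64 (adjusted p = 0.0111) and 3.63 ± 0.58 (0.0107). Both rest on Teff arrays that disagree, at 4.55 and 7.69 for Car2 and at 4.45 and 6.83 for Car1. Zfp944 (3.31 ± 0.59, adjusted p = 0.0161) and Ifi208 (3.68 ± 0.81, 0.0361), again members of families with similar copies, were the other 2 of the 5 most positive. The 5 most negative named genes hold a snoRNA gene, although over all 371 such genes 14 passed with a more negative and 11 with a more positive difference. They were led by Med24, a Mediator subunit, with -2.81 after OX40L-JAG1, where it did not pass, and 2.99 in Control (-5.80 ± 0.69, adjusted p = 0.00148), followed by Rps20 (-5.65 ± 0.56) and Rabggtb (-5.09 ± 0.69). Of the 33 Treg identity genes 4 passed with a smaller difference after OX40L-JAG1 than in Control and 0 with a larger one. These were Cd83, at 0.15 against 2.86, Rgs1, at 0.94 against 3.50, Klrg1, at 1.91 against 4.13, and Entpd1, which degrades extracellular ATP, at 0.24 against 1.98. Of the 15 neutrophil markers, Ltf, Camp, Ngp and Mmp9 passed with a more negative difference. In Control the Treg means of Ltf (4.33) and Ngp (4.52) were below the bound, as were the Teff and Treg means of Camp (3.78 and 3.53). Without OX40L-JAG1 Teff replicate B the interaction called 41 genes, and without Teff replicate 1, 297.

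The difference of a-CD3-CD28 cells, which also shares no array with it, was set beside it in the same way. Of the 210 higher genes, 138 (65.7%) were also higher in a-CD3-CD28 Treg cells (6.96% of the 1984 genes higher there, 8.94% of all tested), and 194 had the same sign. Of the 106 lower genes, 80 (75.5%, or 4.98% of the 1608 genes lower there, 7.25% of all tested) were lower in both, and 104 had the same sign. The correlation across all genes was 0.497, and it was 0.319 without OX40L-JAG1 Teff replicate 1 and 0.529 without replicate B. None of these numbers is a test. In the fit without OX40L-JAG1 Teff replicate 1, a smaller share of the calls had the same sign. How many of all genes had the same sign was not counted.

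The interaction test against a-CD3-CD28 called 5 genes (0.0225%), 4 more positive (0.018%) and 1 more negative (0.00451%). Sytl2, which tethers secretory vesicles, was at 4.49 and 4.50 in Teff and at 6.89 and 7.04 in Treg cells, a difference of 2.47 ± 0.38 after OX40L-JAG1 against -0.96 after a-CD3-CD28 (3.44 ± 0.41, adjusted p = 0.0229). Gbp5, a guanylate-binding protein linked to inflammasomes, was at 4.88 and 5.00 against 7.95 and 7.76, with 2.91 ± 0.32 against 0.19 (2.73 ± 0.34, 0.0258). Cnih1, a cargo receptor of the secretory pathway, had 2.05 against -0.60 (2.65 ± 0.36, 0.045). The Teff means of these genes are below the bound. Il13, a Th2 cytokine, had 0.49 ± 0.42 after OX40L-JAG1, with both means below the bound, against -2.74 after a-CD3-CD28 (3.23 ± 0.46, 0.0474). Ltf was the negative one, at -3.37 against 1.84 (-5.21 ± 0.47, adjusted p = 0.00204). Its a-CD3-CD28 Teff mean of 4.40 was below the bound, so the size of the 1.84 is uncertain. The test has a wide error, since it carries that of the OX40L-JAG1 Teff arrays: without Teff replicate B it called 0 genes (794 at an unadjusted p below 0.05) and without Teff replicate 1, 87.

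**Figure D5:**
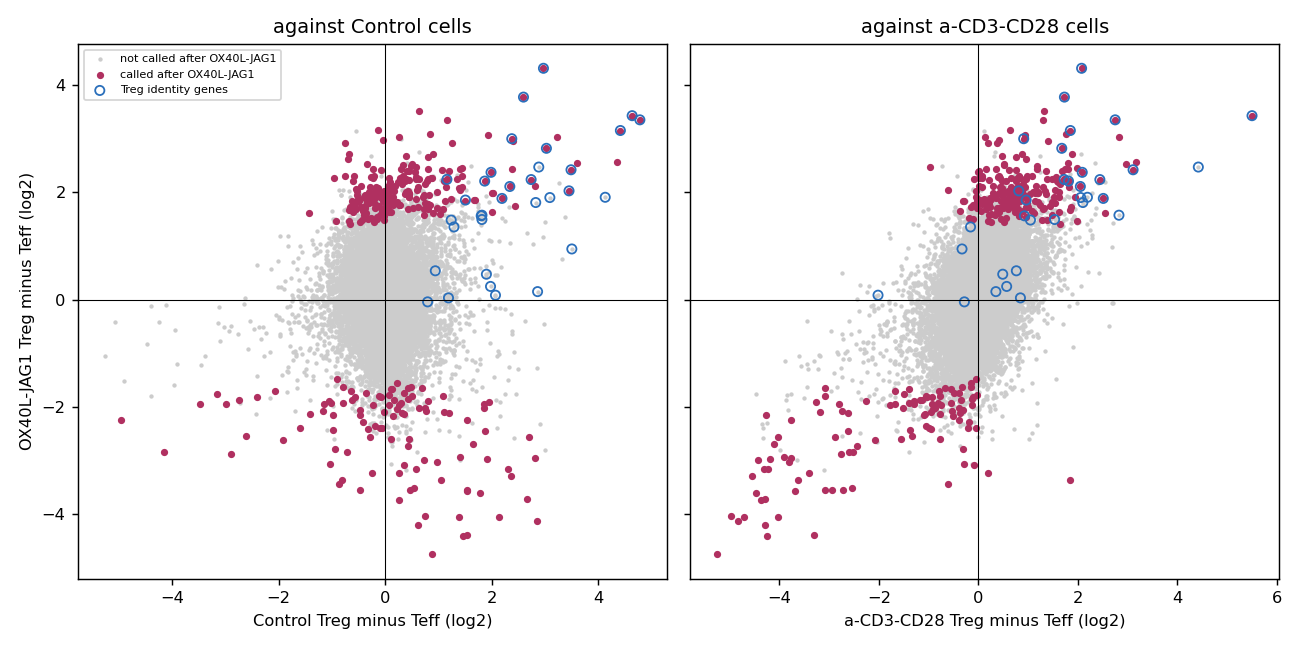
Treg minus Teff difference after OX40L-JAG1 (vertical axes, log2) against that in Control (left) and in a-CD3-CD28 cells (right), 1 point per gene, with genes called after OX40L-JAG1 in dark red and Treg identity genes circled in blue. Most of the 210 genes higher after OX40L-JAG1 lie right of 0 in the right panel (194), as do 104 of the 106 lower genes left of 0, while in the left panel both sets lie on either side of 0.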

How the data were processed

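Sorted Treg and Teff cells were measured on 12 Affymetrix Mouse Gene 2.0 ST arrays, 2 per group. The deposited log2 values are intensities that the authors summarised with RMA, per the submitters' processing notes; its version is not stated in any label or header used. Of 41345 probe sets, 23521 have 1 gene symbol in the platform annotation, 1814 have several and 16010 have none. Those with several symbols and those with none were left out. Genes were named through Entrez IDs (23328 matched RefSeq, GRCm38.p6), and the probe set with the highest mean stood for each of 1082 genes with several, which left 22180 genes. Arrays were quantile normalized over these genes. In R 4.3.3, limma 3.58.1 fitted 1 mean per group with a weight per group (arrayWeights, 6 residual degrees of freedom, 6.34 prior), with Benjamini-Hochberg adjustment over all genes at 0.05. A run on simulated data drew its noise from this same model. It therefore cannot show whether the weights suit OX40L-JAG1 Teff arrays that disagree.

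Named are, among genes that passed, whose groups did not overlap and whose higher mean was above 4.97, the 12 largest differences in each direction, the 5 largest that passed in each direction of an interaction (same level condition), up to 4 called members of each of 33 lists (650 genes; up to 2 where none passed), and a set of genes always given; predicted and small RNA genes were not named. Other list members were named after their values were seen. The groups compared, the lists and the members were chosen with earlier results of these data known. Alternatives covered scaling, weights, arrays, shrinkage, dim genes, probe sets, gene kinds, size of change, a replicate block and each array left out. The snoRNA group and the overlap counts were added after the data were seen. The number of arrays limits the precision.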

Additional observations from a re-analysis of the deposited data

Results flagged for a closer look

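These results were set apart because the Treg minus Teff difference after OX40L-JAG1 differed from that in another pair of groups by the interaction test (limma, adjusted p under 0.05); values are the change of the difference (log2). Against Control, the difference was more positive for Car2 by 4.01, Ifi208 by 3.68, Car1 by 3.63, Abitram by 3.40, Zfp944 by 3.31, Zfp942 by 3.29, Trim30d by 2.75, Kif23 by 2.49, Fads2 by 2.34, Mbnl3 by 2.24 and Map3k8 by 2.18. It was also more positive for Wars by 2.08, Fads1 by 2.06, Sytl2 by 1.90, Cd3e by 1.84, Cenpe by 1.77, Stat2 by 1.75, Ifih1 by 1.69 and Gbp5 by 1.65. Of these, Car2, Car1, Ifi208, Cd3e, Fads1 and Fads2 did not themselves differ between OX40L-JAG1 Treg and Teff cells past the threshold. Car2 and Car1 are from the erythroid and platelet list.

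Against Control, the difference was more negative for 6 genes that hold a snoRNA gene, Med24 (-5.80), Rps20 (-5.65), Rabggtb (-5.09), Ppan (-4.41), Snhg17 (-4.34) and Wdyhv1 (-4.34), for the neutrophil markers Camp (-2.98), Ltf (-2.56) and Ngp (-1.83), and for Cybb (-3.02), from the myeloid and dendritic list. Med24 and Cybb did not themselves differ between OX40L-JAG1 Treg and Teff cells past the threshold. Over all 371 genes that hold a snoRNA gene, 14 passed with a more negative and 11 with a more positive difference. Against a-CD3-CD28 it was more positive for Sytl2 (3.44), Il13 (3.23), Gbp5 (2.73) and Cnih1 (2.65), and more negative for Ltf (-5.21).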

How the results depend on the processing

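Main counts after OX40L-JAG1 were 210 higher and 106 lower genes, 577 genes in the interaction with Control and 5 in that with a-CD3-CD28, in this order below. The deposited scale gave 2767, 359, 4670 and 18, a common median 4017, 200, 5384 and 27, no weights 2282, 1731, 2391 and 183, and trend with robust shrinkage 543, 228, 1322 and 75. With dim genes left out (11261 genes tested) there were 700, 353, 1735 and 52, and a change of at least 1 left 2, 2, 41 and 1. The arrays of the groups compared alone gave 0, 0, 826 and 2, quantile normalization over all probe sets 327 higher genes and 1051 in the interaction with Control, cyclic loess 220 lower genes, and leaving out small RNA and predicted genes 17 in the interaction with a-CD3-CD28. With 1 array left out, counts lay between 0 and 168, 2 and 115, 41 and 480, and 0 and 87. The cause of these changes was not tested. Leaving out arrays or genes leaves fewer of them in the fit, and the counts of calls then fell in some fits and rose in others.

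None of 60 called named genes reversed in these alternatives. Cyclic loess ended the calls of Camp, Cd200r1, Maf, Ccr8, Cenpe, Stat2, Ifih1, Usp18, Prss34 and Hdc, and the deposited scale those of Dapl1, Igfbp4, Pik3ip1, Hspa1a and Prss34. Averaging all probe sets of each gene ended those of Nop56, Wdyhv1, Cish, Maf and Hif1a. Notch1, which did not pass, had 1.11 after a common median shift and passed there. Whether the replicate labels B and 1 pair the arrays is not stated: correlated over genes, the replicate differences of 6 groups ranged from -0.0265 to 0.227 in 15 pairs of groups, and OX40L-JAG1 Teff with Treg was the pair at 0.227. With the replicate block, 173 genes were higher, 100 lower, 533 in the interaction with Control and 6 in that with a-CD3-CD28, and 53 of the 60 named calls passed. With no detection calls, levels under 4.97 limit what can be read of dim genes.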
